A study of Homo sapiens with 5 samples.

Results

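The genes described here act at the gates of the endoplasmic reticulum (ER): proteins enter through the translocon, leave for the Golgi in COPII vesicles, or are sent back to the cytosol for destruction. Of 42 genes listed by name, 39 had a probe set that carries no other gene's symbol, out of 19775 genes with such a probe set on these arrays. SYVN1, SEC61G and KDELR2 had none and are not analysed here. Each gene was read from its brightest probe set, judged by the mean of the 5 arrays, and its level is the log2 of the deposited intensity. A level under 6 is called near background here, and a probe set counts as above background if it reached 6 on any array. The derlin DERL3, at 5.81 to 5.83 on all 5 arrays, was the only listed gene below it, which left 38 genes, each above 6 on all 5 arrays.

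All 5 arrays held RNA from PC-3, a line of human prostate cancer cells first grown from a metastasis in bone and able to grow without androgen. 1 array held a spheroid culture (cells grown as clusters in 3 dimensions) and 1 a flat 2D culture, which served as its control. A further 2 arrays held cells labelled as expressing short hairpin RNAs against TRIB1 (shTRIB1-1 and shTRIB1-2), and 1 held cells with a control hairpin against GFP (shGFP). The study compared 3D with flat growth and looked for genes that depend on TRIB1, a pseudokinase that hands proteins to the ubiquitin ligase COP1. The labels give 1 protocol, growth in dishes, for every sample, and do not say whether arrays came from separate cultures, so a p-value covers only how these arrays differ, and that spread may be technical. The spheroid, 2D and shGFP conditions have no replicate.

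ER-associated degradation (ERAD) removes proteins that fail to fold. Lectins and mannosidase-like proteins pick out the client, the SYVN1-SEL1L ligase complex and its helpers ubiquitinate it, and the ATPase VCP pulls it out through the derlins to the proteasome. In the opposite direction, the SEC61 channel, the TRAP complex and the signal peptidase admit and trim new secretory proteins, COPII coats carry cargo out, and KDEL receptors return escaped residents. Many of these genes are known targets of the unfolded protein response, in which XBP1 and ATF6 bind promoter elements when the ER is overloaded.

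Several facts of the whole series bear on the values below. TRIB1 itself had levels of 11.91 (shTRIB1-1), 11.76 (shTRIB1-2) and 11.97 (shGFP), so the signal does not show the depletion that the labels name, and these arrays are called by their labels throughout. Actin's 5′ over 3′ signal, a measure of labelling and RNA quality, was 0.131 on the spheroid and 0.184 on the 2D array, but 0.445, 0.442 and 0.436 on the shTRIB1-1, shTRIB1-2 and shGFP arrays. The same ratio for GAPDH was 0.763 on the spheroid, 0.895 on the 2D and 0.929 to 0.944 on the hairpin arrays. For the thr spike, a control RNA added to the samples, it was 0.152 (spheroid), 0.157 (2D) and 0.271 to 0.315 (hairpin arrays). The dap spike gave 0.11 on the spheroid and 2D arrays and 0.16 to 0.18 on the hairpin arrays. The actin and spike ratios thus separated the 3 hairpin arrays from the other 2, and their part in the differences below was not tested. Of the marker genes, the epithelial KRT8, KRT18, KRT19, EPCAM and CDH1 were between 9.39 and 13.19 on all arrays. They were not level: spheroid minus 2D was -0.78 for KRT8, -0.57 for KRT18, -0.79 for KRT19, -0.37 for EPCAM and 0.08 for CDH1. CDH1 differed from shGFP by 1.37 and 0.53 on the shTRIB1-1 and shTRIB1-2 arrays, and KRT8 by 0.82 for shGFP minus 2D. The part of these shifts was not tested. Of the prostate luminal markers, KLK2 was under 6 and KLK3 at 6.90 on all 5, and TMPRSS2 ran from 5.62 to 7.09. Of 5 blood and endothelial markers measured, 4 stayed under 6 on all 5 arrays and HBB lay between 6.15 and 6.25. The 5 fibroblast markers stayed under 6, with COL3A1 at 5.80 on the spheroid and 3.82 on the 2D array; its part was not tested. In RNA of whole cultures, fewer cells of a kind and less RNA per cell cannot be told apart.

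The promoter of HERPUD1 is shown because this ERAD gene had the largest spread of the 38 over the 5 arrays. HERPUD1 encodes an ER membrane protein that organises the ligase complex, and it is a textbook target of ER stress. The sequence covers the 250 bases before the gene's start (GRCh38.p14, chr16:56931892-56932141, plus strand, from RefSeq), with an ER stress response element of the second type (ERSE-II: ATTGG, 1 base of any kind, CCACG) in capitals. It begins 117 bases before the start.
HERPUD1: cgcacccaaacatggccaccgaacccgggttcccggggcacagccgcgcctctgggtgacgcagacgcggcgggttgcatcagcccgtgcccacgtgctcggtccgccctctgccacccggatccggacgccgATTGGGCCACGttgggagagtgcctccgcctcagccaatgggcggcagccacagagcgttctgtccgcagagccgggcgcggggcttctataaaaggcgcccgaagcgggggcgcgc

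Promoters were searched on both strands from 250 bases before to 50 bases after the start, for 35 of the 39 genes. Only exact matches to the letters were counted. DERL1, DERL3, SPCS1 and SEC24D had no entry. ERSE-II was found in HERPUD1 alone of the 35, and in 0.156% of 8967 genes at or above level 6 on any array. The longer ER stress response element (ERSE: CCAAT, 9 bases of any kind, CCACG) was found in 0 of the 35 and in 0.156% of those 8967 genes. The HERPUD1 sequence above holds CCAAT, 9 bases and then CCACA, which is not an exact match and was not counted. The 8 letters TGACGTGG, the core of the element that XBP1 binds, were found in 8 of the 35 (22.9%) and in 1.22% of the 8967 genes. Over all 35116 promoters in the table the shares were 0.0541% for ERSE-II, 0.0769% for ERSE and 0.729% for TGACGTGG. The reverse complement of TGACGTGG, CCACGTCA, contains the CCACG that also ends both ER stress elements.

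The 8 matches are shown with up to 20 bases on either side, along the gene's own strand, with the match in capitals. They lie at chr5:134648586-134648633 (SEC24A, plus strand), chr3:169966770-169966817 (SEC62, plus), chr3:156554139-156554186 (SSR3, minus), chrX:153794519-153794566 (SSR4, plus), chr22:38468030-38468077 (KDELR3, plus), chr6:89352926-89352972 (UBE2J1, minus), chr14:39103212-39103259 (SEC23A, minus) and chr9:35072787-35072834 (VCP, minus) of GRCh38.p14. A match is a description of the letters and not a measured binding site.
SEC24A: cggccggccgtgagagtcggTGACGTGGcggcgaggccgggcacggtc
SEC62: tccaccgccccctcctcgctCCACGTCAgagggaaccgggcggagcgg
SSR3: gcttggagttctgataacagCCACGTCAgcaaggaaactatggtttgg
SSR4: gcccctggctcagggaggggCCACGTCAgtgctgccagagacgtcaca
KDELR3: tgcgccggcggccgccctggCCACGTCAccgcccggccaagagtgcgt
UBE2J1: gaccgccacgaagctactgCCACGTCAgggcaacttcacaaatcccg
SEC23A: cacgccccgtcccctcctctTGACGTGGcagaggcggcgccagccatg
VCP: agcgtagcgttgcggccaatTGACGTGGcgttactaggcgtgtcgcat

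**Figure D1:**
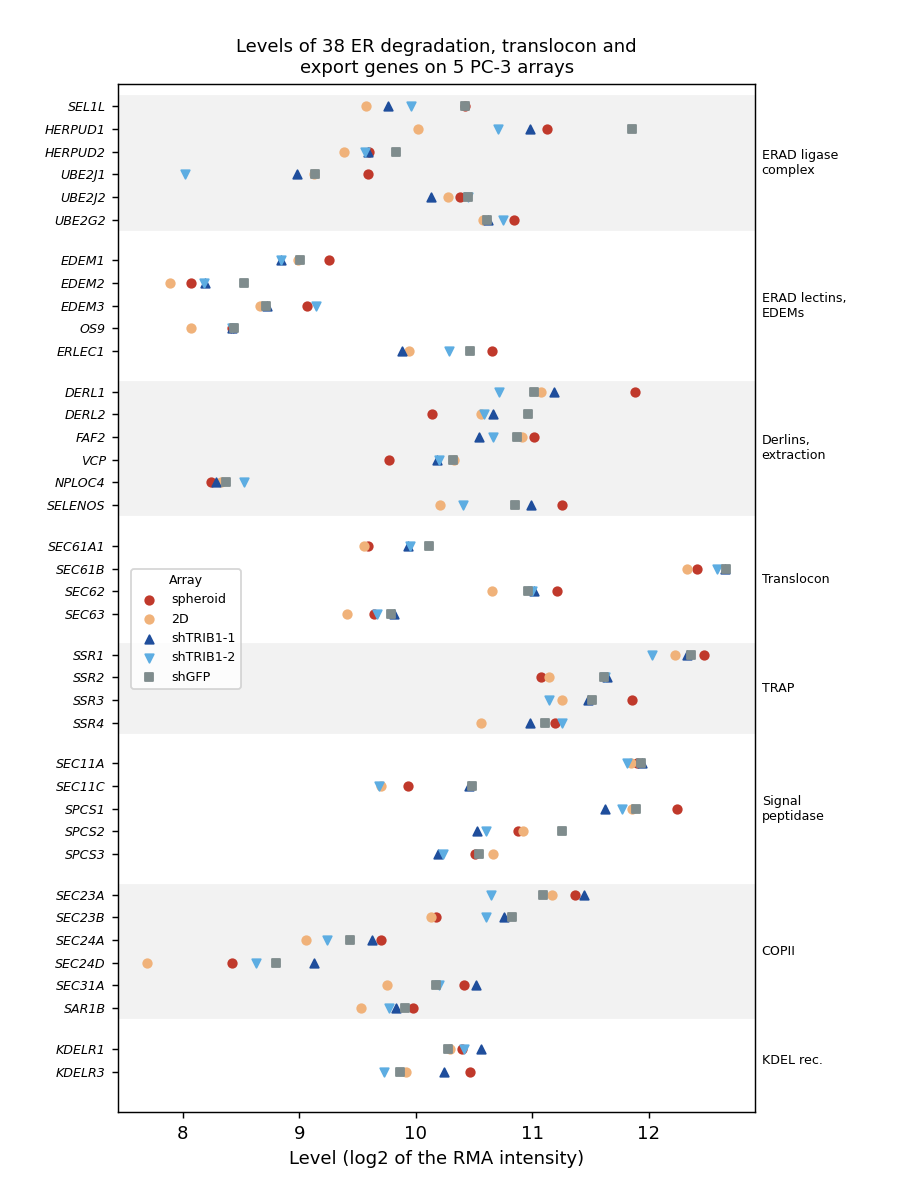
Levels (log2 of the RMA intensity, horizontal axis) of the 38 genes above background, grouped by role, with 1 point per array and colours and shapes for the 5 arrays. The 2D point lies leftmost for 18 of the 38 genes, among them HERPUD1 at 10.02 and SEC24D at 7.70.

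Spheroid growth was set against 2D growth, and most of the 38 genes were higher in the spheroid array by a modest amount. Of the 38, 32 were higher and 6 lower, where 47.3% and 50.9% of all 10570 genes tested were higher and lower. The median difference was 0.26 on the log2 scale, and -0.0083 over all genes tested. At a difference of at least 0.5 (1.41-fold), 12 of the 38 were higher and 1 was lower, against 15.1% and 15.7% of all genes. At a difference of at least 1 (2-fold), 2 were higher, HERPUD1 and SELENOS, which is 5.26% of the 38 against 5.05% of all genes. There is no test here, since each condition has 1 array, and with the median over each gene's probe sets 6 instead of 12 were at least 0.5 higher.

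In the ligase complex all 6 measured genes were higher in the spheroid array, by 0.11 to 1.11, against 47.3% of all genes. All 6 were also higher on the shGFP array than on the 2D array. HERPUD1 was at 11.12 on the spheroid array and 10.02 on the 2D array, a difference of 1.11 (2.16-fold). SEL1L, the adaptor that links the ligase to its clients, was at 10.42 on the spheroid and 9.57 on the 2D array, a difference of 0.85. SEL1L was higher on all 3 of its probe sets at or above level 6, by 0.39 to 0.85, whereas HERPUD1 had only 1 such probe set. The ubiquitin-conjugating enzyme UBE2J1 differed by 0.46, but its 5 probe sets above background ran from -0.23 to 0.46. The enzymes UBE2G2 and UBE2J2 differed by 0.27 and 0.11, and the HERPUD1 relative HERPUD2 by 0.22.

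The lectins and mannosidase-like proteins were higher in the spheroid array in 5 of 5 cases, against 47.3% of all genes. All 5 were also higher on the shGFP array than on the 2D array. ERLEC1, a lectin that recognises trimmed glycans, was at 10.65 on the spheroid and 9.94 on the 2D array, a difference of 0.71. EDEM3 differed by 0.40, the lectin OS9 by 0.35, EDEM1 by 0.26 and EDEM2 by 0.18. The EDEM proteins help trim mannose from the glycans of misfolded proteins.

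The genes of extraction went both ways, 3 of 6 higher and 3 lower. SELENOS, a selenoprotein that ties VCP to the derlins, was at 11.25 on the spheroid and 10.21 on the 2D array, a difference of 1.04 (2.06-fold). DERL1 was at 11.88 on the spheroid and 11.08 on the 2D array, a difference of 0.81. Its other probe sets above background gave differences of 0.75 and -0.01, so they did not all show it. VCP, the ATPase of extraction, was the lowest of the 38 at -0.56, with 9.77 on the spheroid and 10.33 on the 2D array. Both VCP probe sets were lower, at -0.56 and -0.73. DERL2 differed by -0.42 on its brightest probe set but by 0.21 on the other. FAF2, which recruits VCP to the membrane, differed by 0.10 and the VCP cofactor NPLOC4 by -0.08.

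On the entry side the translocon channel was nearly level apart from SEC62. SEC62, a partner of SEC61 that also takes part in ER-phagy, was at 11.21 on the spheroid and 10.65 on the 2D array, a difference of 0.56, and its 5 probe sets ran from -0.35 to 0.59. The channel subunits SEC61A1 and SEC61B differed by 0.03 and 0.08, and SEC63 by 0.23. In the TRAP complex, which helps signal sequences engage the channel, SSR4 was at 11.20 on the spheroid and 10.56 on the 2D array and SSR3 at 11.86 on the spheroid and 11.26 on the 2D array. SSR3 and SSR4 were thus higher by 0.60 and 0.63, while SSR1 differed by 0.25 and SSR2 by -0.06. Of the 4 SSR3 probe sets only the brightest reached 0.5. The next gave 0.19 and 0.20, and the dimmest, at 5.06 on the spheroid and 6.25 on the 2D array, gave -1.19. The 6 SSR1 probe sets ran from -0.18 to 0.68. The signal peptidase cuts signal sequences off, and none of its 5 genes reached 0.5: SPCS1 differed by 0.38, SEC11C by 0.24, SEC11A by 0.05, SPCS2 by -0.04 and SPCS3 by -0.16.

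On the exit side all 6 COPII genes were higher in the spheroid array on their brightest probe sets, with a median of 0.54. Of all genes, 47.3% were higher. On the shGFP array 5 of the 6 were also higher than on the 2D array. SEC24D, a cargo adaptor of the inner coat, was at 8.43 on the spheroid and 7.70 on the 2D array, a difference of 0.73. The outer coat gene SEC31A was at 10.41 on the spheroid and 9.75 on the 2D array and differed by 0.66, with its other probe set at 0.71. The cargo adaptor SEC24A, at 9.70 on the spheroid and 9.06 on the 2D array, differed by 0.64, and its 3 probe sets gave 0.47 to 1.03. The GTPase gene SAR1B differed by 0.45 and was higher on 5 of 5 probe sets, by 0.19 to 1.04. The inner coat genes SEC23A and SEC23B differed by 0.20 and 0.04, and the other SEC23A probe set gave -0.16. The other SEC23B probe sets were lower too, at -0.11 and -0.15. Of the receptors that bring residents back, KDELR3 differed by 0.56 and KDELR1 by 0.10.

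Among the 12 genes at least 0.5 higher in the spheroid array, 10 had a promoter entry and 5 of these (SEC24A, SEC62, SSR3, SSR4 and KDELR3) held TGACGTGG. Of the other 26 genes, 25 had an entry and 3 held it (UBE2J1, SEC23A and VCP). VCP, which holds the letters too, was the lowest of the 38. With the median over each gene's probe sets, SEC24A (0.47), SEC62 (0.29), SSR3 (0.19) and KDELR3 (0.45) fell under 0.5. SSR4 stayed above it, at 0.63. The split by promoter letters thus depends on the choice of probe set. It was looked at after the differences were known and has no test.

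**Figure D2:**
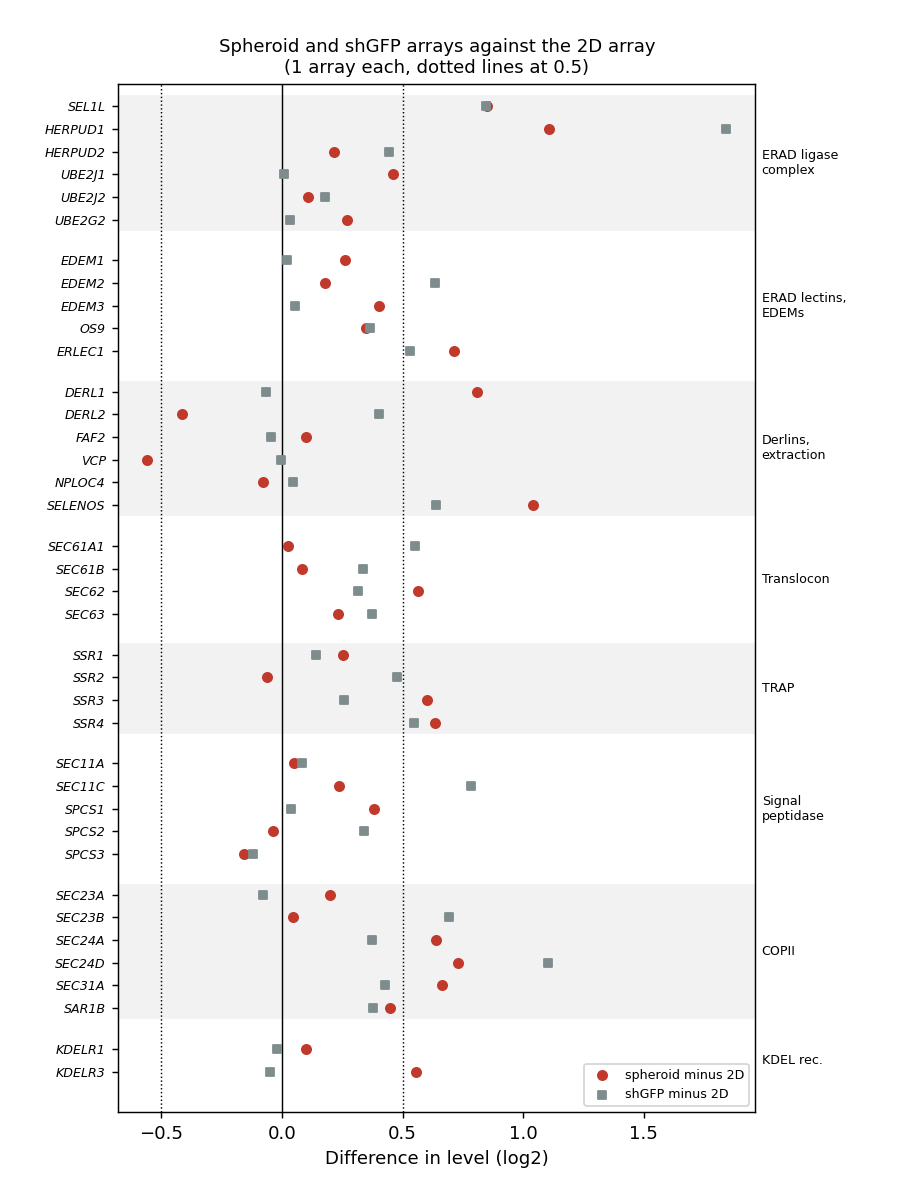
Difference in level from the 2D array (log2, horizontal axis) of the 38 genes, with a circle for the spheroid array and a square for the shGFP array, 1 array each, and dotted lines at 0.5 in both directions. Circles and squares lie mostly right of 0, with HERPUD1 at 1.11 for spheroid and 1.84 for shGFP, while DERL1 is at 0.81 for spheroid and -0.07 for shGFP.

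The shGFP array was also set against the 2D array, because both are controls, and the 38 genes were mostly higher in it. Of the 38, 31 were higher and 7 lower, against 48.9% and 47.3% of all 10450 genes tested, with a median of 0.34 against 0.00 over all genes. On the brightest probe sets, at least 0.5 was reached by 10 genes upward and 0 downward, against 8.62% and 9.52% of all genes. At least 1 was reached by 2, HERPUD1 at 1.84 and SEC24D at 1.10, against 2.13% of all genes. SEL1L followed at 0.85. The signal peptidase subunit SEC11C was at 10.49 on the shGFP array and 9.70 on the 2D array, a difference of 0.78. SEC23B differed by 0.69, SELENOS by 0.64, EDEM2 by 0.63, SEC61A1 and SSR4 by 0.55 and ERLEC1 by 0.53. Dimmer probe sets of FAF2, KDELR1 and SSR1 were lower on the shGFP array, at -1.38, -0.67 and -0.54. With the median over each gene's probe sets, 11 of 37 genes were at least 0.5 higher. In that setting 1 was at least 0.5 lower, FAF2 at -0.71. The 2 arrays also differ in the actin ratio, 0.436 on the shGFP and 0.184 on the 2D array, and hairpin, handling and array set cannot be told apart.

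The 2D array was therefore the low one for many of these genes. It lay below each of the other 4 arrays for 18 of the 38 genes (47.4%), against 21.0% of 10843 genes. The 2D array is the control of the spheroid comparison as well, so the spheroid and shGFP differences share it. Set against the average of both controls, 2D and shGFP, the spheroid array was at least 0.5 higher for 3 genes instead of 12 and at least 0.5 lower for 2. Over all 10700 genes tested so, 13.1% were higher and 14.0% lower by that much, so neither count exceeds the share of all genes. At any size, 26 of the 38 were higher and 12 lower (68.4% and 31.6%), against 46.8% and 52.6% of all genes. The median was 0.18, against -0.0242 over all genes. At 0.5 or more, the genes were as follows. The higher genes were DERL1 at 0.84, SELENOS at 0.72 and KDELR3 at 0.58, and the lower ones were DERL2 at -0.62 and VCP at -0.56. HERPUD1 differed by 0.19 and SEL1L by 0.43 in that setting. For DERL1 the spheroid level of 11.88 exceeded the highest other array by 0.70.

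**Figure D3:**
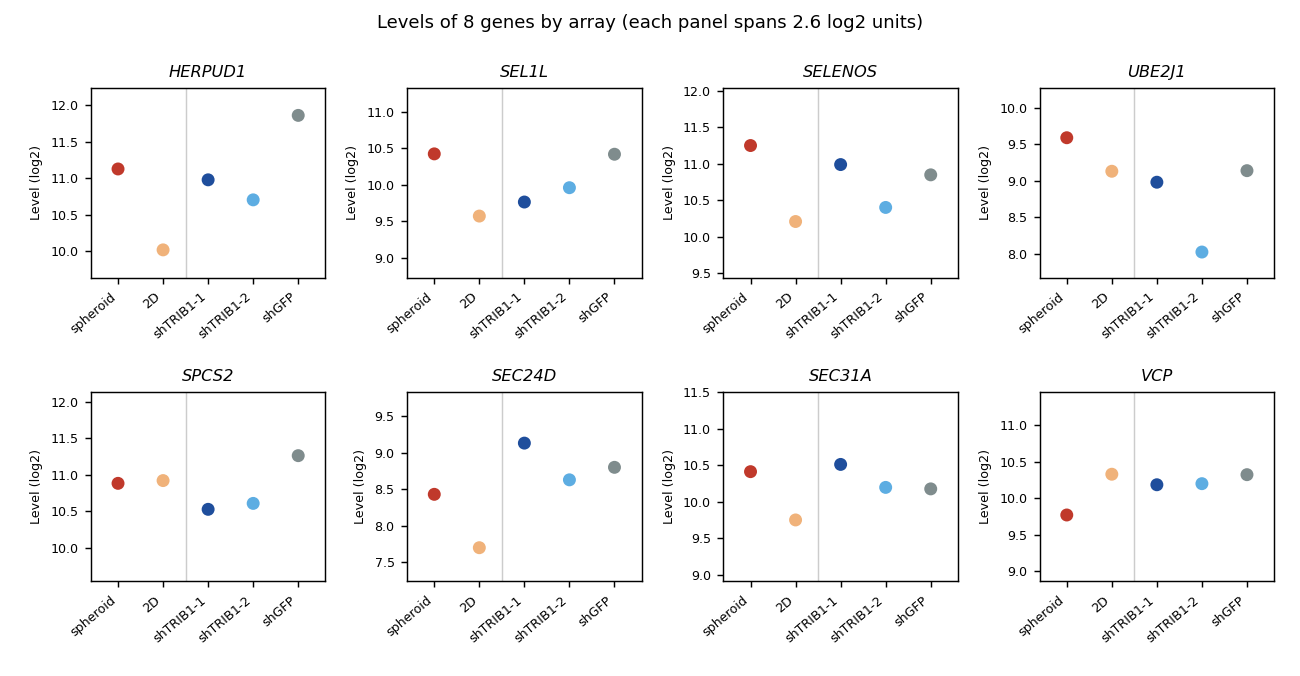
Levels (log2 of the RMA intensity, vertical axis) of 8 genes on the spheroid, 2D, shTRIB1-1, shTRIB1-2 and shGFP arrays, 1 point per array, with a grey line between the culture pair and the hairpin arrays. HERPUD1 runs from 10.02 on the 2D to 11.86 on the shGFP array, UBE2J1 is lowest at 8.02 on the shTRIB1-2 array, and SPCS2 is lowest on both shTRIB1 arrays.

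Both arrays with a hairpin labelled against TRIB1 were set against shGFP, the comparison meant to show dependence on TRIB1. Of the 38 genes, 21 were lower on both, 6 were higher on both and 11 had opposite signs, where 34.7% of all 10522 genes tested were lower on both and 25.0% higher on both. The medians were -0.05 on the shTRIB1-1 and -0.17 on the shTRIB1-2 array, against -0.03 and -0.0095 over all genes tested. HERPUD1 and SPCS2 were at least 0.5 lower on both arrays, 2 of 38 against 1.69% of all genes, and 0 were at least 0.5 higher on both, against 2.50%. Each array alone was at least 0.5 lower for 4 of the 38, against 9.41% of all genes on the shTRIB1-1 and 6.07% on the shTRIB1-2 array. Against the mean of both controls, 0 of the 38 were at least 0.5 lower on both arrays. Limma, fitted across all 10522 genes, called 0 of the 38 at an adjusted p under 0.05 (0% of all genes called), with a smallest adjusted p of 0.951 among them (0.558 to 1 over the alternative settings). At an unadjusted p under 0.05 it held 2 of the 38, HERPUD1 and SPCS2, and 3.38% of all genes, with 1 residual degree of freedom.

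HERPUD1 was at 10.98 and 10.70 on the shTRIB1-1 and shTRIB1-2 arrays and at 11.86 on the shGFP array. It differed by -0.88 and -1.16, a mean of -1.02 ± 0.19 (SD, n = 2), with an adjusted p of 0.951 by limma. The SD here and below is the spread between the 2 hairpin arrays and does not hold the spread of the shGFP array. Against the 2D array the signs turned, to 0.96 and 0.69, since the 2D level of HERPUD1 was 10.02. SEL1L was at 9.76 and 9.96 on the shTRIB1-1 and shTRIB1-2 arrays and 10.42 on the shGFP array, a mean difference of -0.56 ± 0.14 (SD, n = 2). All 3 SEL1L probe sets above background were lower on both, yet against the 2D array SEL1L was higher by 0.19 and 0.39. Thus both genes lay between the 2 controls.

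SPCS2, a noncatalytic subunit of the signal peptidase, was lower than in either control. It was at 10.52 and 10.60 on the shTRIB1-1 and shTRIB1-2 arrays, and at 11.26 on the shGFP and 10.92 on the 2D array. The mean difference from shGFP was -0.69 ± 0.06 (SD, n = 2; limma adjusted p of 0.951), and the differences from 2D were -0.39 and -0.31. The other SPCS2 probe set above background gave -0.31 and -0.47 against shGFP, with levels of 10.64 (shTRIB1-1), 10.49 (shTRIB1-2), 10.96 (shGFP) and 10.65 (2D). SPCS3, at 10.19 and 10.24 on the shTRIB1-1 and shTRIB1-2 arrays against 10.54 on the shGFP and 10.66 on the 2D array, differed from shGFP by -0.33 ± 0.03 (SD, n = 2). All 5 signal peptidase genes had a negative mean difference, as did 55.1% of all genes. SPCS1 differed by -0.26 and -0.12, but SEC11C, at -0.03 and -0.80, and SEC11A, at 0.01 and -0.12, were below shGFP mainly on the shTRIB1-2 array. Of the 38, 7 were lower on both shTRIB1 arrays than on both controls, namely SPCS1, SPCS2, SPCS3, UBE2J1, EDEM1, FAF2 and VCP, against 21.7% of 10668 genes. A further 6 (UBE2G2, EDEM3, SEC62, SSR2, SEC31A and KDELR1) were higher than both controls, against 15.9%. Neither count is above the share of all genes. Both counts use brightest probe sets. The other EDEM3 probe sets were below shGFP on the shTRIB1-1 array, at -0.24 and -0.09. A dimmer SEC62 probe set was below both controls. It was at 7.57 (shTRIB1-1) and 7.49 (shTRIB1-2), against 7.80 (shGFP) and 7.97 (2D).

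UBE2J1, which attaches ubiquitin at the ER membrane, was lower on both arrays, and by far more on shTRIB1-2. It was at 8.98 on the shTRIB1-1, 8.02 on the shTRIB1-2 and 9.14 on the shGFP array, and at 9.59 and 9.13 on the spheroid and 2D arrays. The differences from shGFP were -0.16 and -1.11. All 5 UBE2J1 probe sets above background were lower on both arrays, with differences from -1.82 to -0.73 on shTRIB1-2 and from -0.79 to -0.16 on shTRIB1-1. SEC11C, a catalytic signal peptidase subunit, had the same order, at 10.45 on the shTRIB1-1, 9.68 on the shTRIB1-2 and 10.49 on the shGFP array. On the 2D array SEC11C was at 9.70, close to its shTRIB1-2 level and below its shTRIB1-1 level. It had 1 probe set above background. The 2 hairpin arrays differed from each other by at least 0.5 for 6 of the 38 genes, against 18.6% of all genes: UBE2J1, SEC11C, SEC23A, SELENOS, KDELR3 and SEC24D. The 6 are 15.8% of the 38, below the share of all genes. All 6 were lower on the shTRIB1-2 than on the shTRIB1-1 array. The direction over all genes that differ so was not counted, so no pattern of the listed genes is read from it.

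The COPII coat and KDEL receptors were mostly above shGFP on the shTRIB1-1 array, in 4 of 6 and 2 of 2 genes, and 5 of the 6 coat genes were below it on the shTRIB1-2 array. Of all genes, 42.2% were higher and 53.5% lower on shTRIB1-1, and 43.7% were higher and 51.3% lower on shTRIB1-2. SEC23A was at 11.45 on the shTRIB1-1, 10.65 on the shTRIB1-2 and 11.09 on the shGFP array, so the hairpin arrays lay on opposite sides of the control, by 0.36 and -0.44. Its other probe set gave 0.38 and -0.48. SEC24D differed by 0.33 and -0.17, SEC24A by 0.19 and -0.20 and KDELR3 by 0.38 and -0.14. SEC31A was higher on both, by 0.34 and 0.02, and KDELR1 by 0.29 and 0.14. SEC23B differed by -0.07 and -0.22 and SAR1B by -0.07 and -0.14. On the brightest probe sets of SEC23A, SEC24A, SEC24D and KDELR3 the hairpin arrays thus lay on opposite sides of shGFP. The other KDELR3 probe sets did not show this. They were higher on shTRIB1-1 and shTRIB1-2, by 0.25 and 0.02 on one and by 0.59 and 0.52 on the dimmest.

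On their brightest probe sets, the remaining ERAD genes included 6 that were lower on both hairpin arrays by similar amounts. Of all genes, 34.7% were lower on both. EDEM2 differed by -0.34 ± 0.0026 (SD, n = 2), DERL2 by -0.33 ± 0.05, FAF2 by -0.26 ± 0.09, HERPUD2 by -0.25 ± 0.02, EDEM1 by -0.16 ± 0.0018 and VCP by -0.13 ± 0.01. Other probe sets did not all show the same: the second FAF2 probe set gave 0.17 and -0.07, and the second DERL2 probe set -0.95 and -0.88. Of the 3 HERPUD2 probe sets, 1 was higher on shTRIB1-1, by 0.04. ERLEC1 differed by -0.59 and -0.18 and UBE2J2 by -0.32 and 0.00. EDEM3 was higher by 0.43 on the shTRIB1-2 array and by 0.01 on the shTRIB1-1 array. OS9 (-0.02 on both), UBE2G2 (0.01 and 0.14) and NPLOC4 (-0.09 and 0.15) stayed close to the control. SELENOS (0.14 and -0.45) and DERL1 (0.17 and -0.30), the 2 extraction genes at least 0.5 higher in spheroids, had opposite signs on the hairpin arrays. In the translocon SEC61A1 differed by -0.18 and -0.16, SEC61B by -0.01 and -0.08, SEC62 by 0.05 and 0.03 and SEC63 by 0.03 and -0.11. In TRAP, SSR1 differed by -0.04 and -0.33, SSR2 by 0.02 and 0.01, SSR3 by -0.04 and -0.37 and SSR4 by -0.13 and 0.15.

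**Figure D4:**
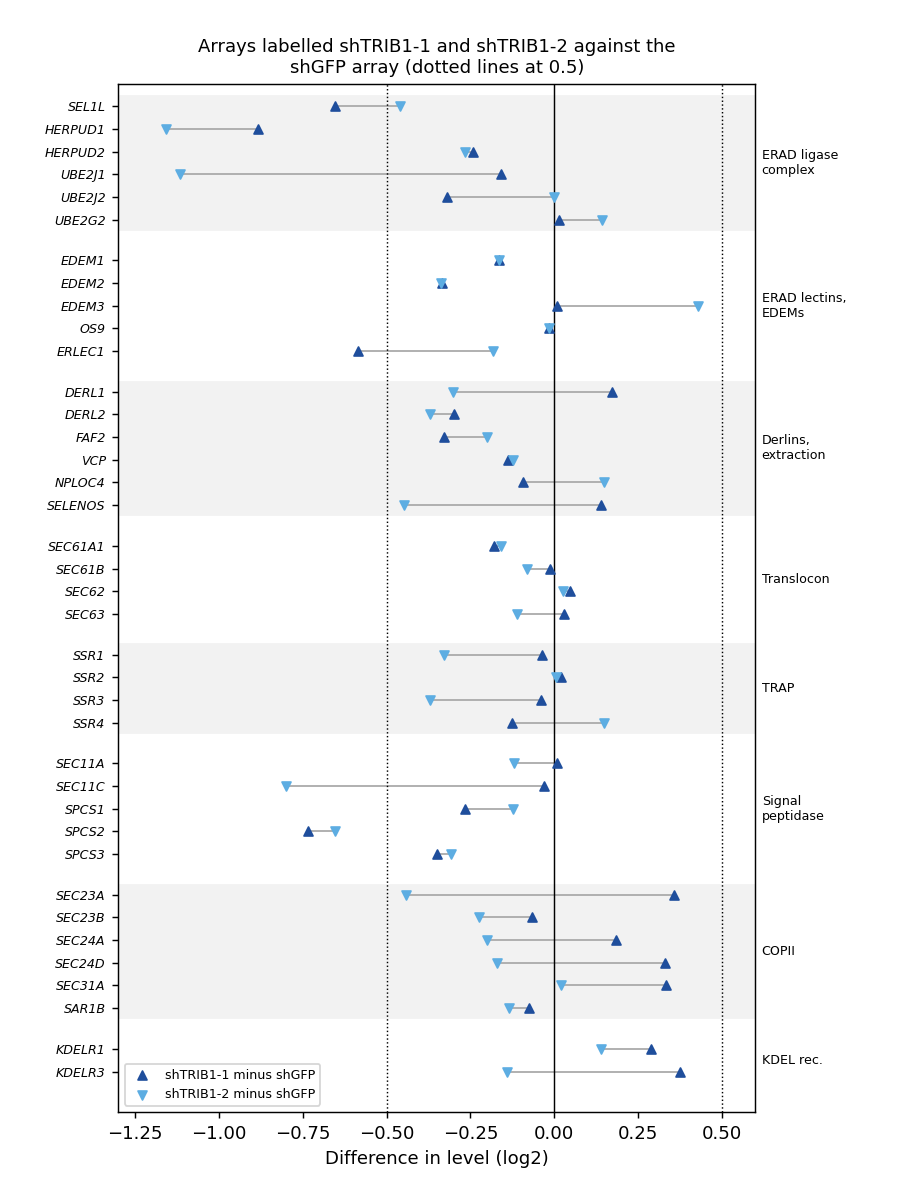
Difference in level from the shGFP array (log2, horizontal axis) of the 38 genes by role, with an upward triangle for the array labelled shTRIB1-1, a downward triangle for shTRIB1-2, a line joining the pair and dotted lines at 0.5. HERPUD1 and SPCS2 lie left of -0.5 on both arrays, UBE2J1 and SEC11C on shTRIB1-2 alone, and 4 of the 6 COPII genes have shTRIB1-1 right of 0.

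**Figure D5:**
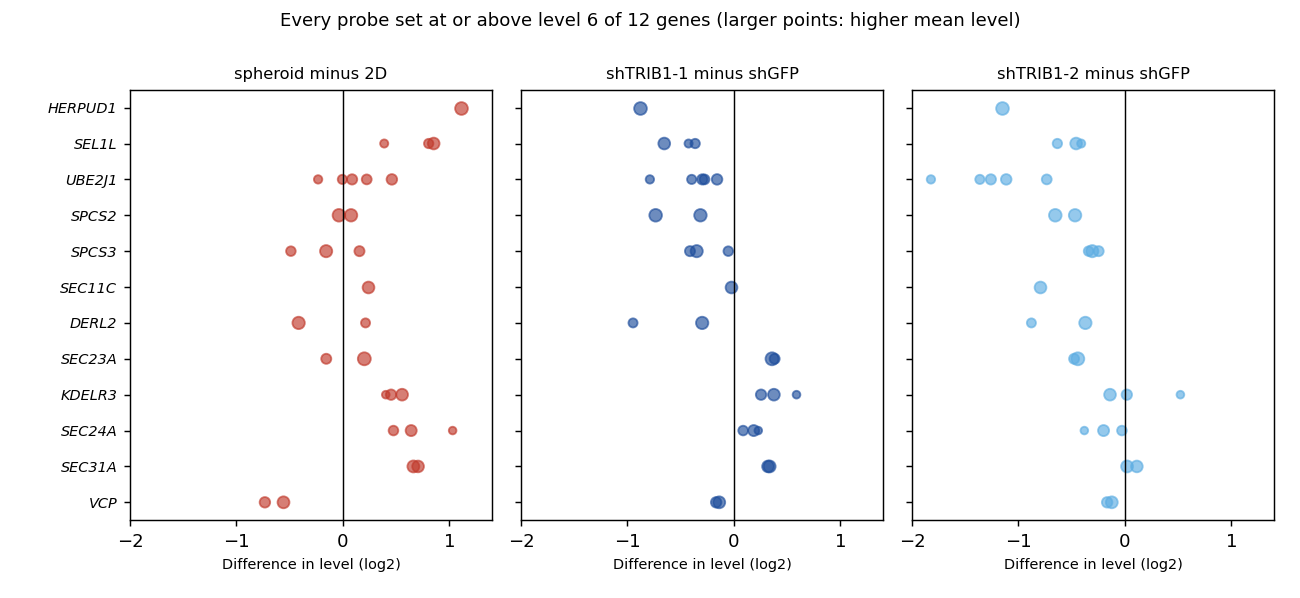
Differences in level (log2, horizontal axes) for every probe set at or above level 6 of 12 genes, for spheroid minus 2D, shTRIB1-1 minus shGFP and shTRIB1-2 minus shGFP, with larger points for brighter probe sets. All 5 UBE2J1 points lie left of 0 for shTRIB1-2, between -0.73 and -1.82, while for spheroid minus 2D they lie on both sides of 0.

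Other genes of the same pathways were read from a list of 85, of which 83 had a probe set and 80 passed the level filter in the spheroid comparison. They cover further ERAD factors, the signal recognition particle, the oligosaccharyltransferase, the ER membrane complex, exit sites, cargo receptors and the COPI coat. In the spheroid array 55 of the 80 were higher and 24 lower (68.8% and 30.0%), with a median of 0.16. Of all genes tested, 47.3% were higher and 50.9% lower, with a median of -0.0083. At a difference of at least 0.5, 11 of the 80 were higher and 0 lower. These 11 are 13.8% of the list, below the 15.1% of all genes, and 15.7% of all genes were at least 0.5 lower. The highest were MIA2, which loads bulky cargo at exit sites, at 1.36, the ER membrane complex subunit EMC3 at 0.84 and the signal recognition particle receptor SRPRA at 0.78. The lowest were RNFT1 at -0.41, MAGT1 at -0.39 and SRP9 at -0.36. All 13 cargo receptors and p24 proteins measured were higher, by a median of 0.27, where 47.3% of all genes were higher. Of 13 further ERAD factors, 6 were higher and 6 lower, with a median of 0.00. For the signal recognition particle and its receptor it was 6 higher and 5 lower, with a median of 0.0023. Higher genes were 9 of 10 at exit sites, 9 of 13 in the ER membrane complex list, 7 of 12 in the oligosaccharyltransferase and 5 of 8 in COPI. In the shGFP array against 2D, 57 of the 80 were higher and 20 lower (71.2% and 25.0%), with a median of 0.13. Of all genes tested so, 48.9% were higher and 47.3% lower, with a median of 0.00. The list ran from MIA3 at 0.74, RNF185 at 0.64 and MIA2 at 0.60 to EMC1 at -0.32, UBE2K at -0.50 and RNFT1 at -0.76.

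On the hairpin arrays the same list was higher more often than all genes on shTRIB1-1 and close to all genes on shTRIB1-2. Of 79 genes tested, 48 were higher and 29 lower on shTRIB1-1 (60.8% and 36.7%, median 0.06). Over all genes tested, 42.2% were higher and 53.5% lower there (median -0.03). On shTRIB1-2, 31 were higher and 45 lower (39.2% and 57.0%, median -0.04), against 43.7% and 51.3% of all genes (median -0.0095). The mean of both arrays was positive for 39 and negative for 40, with a median of -0.0028. For all genes it was positive in 43.8% and negative in 55.1%. The lowest mean differences were those of the p24 protein TMED2 at -0.72, PREB, which activates SAR1, at -0.57 and the oligosaccharyltransferase catalytic subunit STT3B at -0.53. TMED2 differed by -1.25 and -0.20, so that 1 hairpin array carried most of it, whereas PREB differed by -0.44 and -0.70. The highest were TMED5 at 0.32, EMC3 at 0.28 and ERGIC1 at 0.23. Limma called 0 of these 79 genes, with adjusted p of 0.951 for PREB.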

How the data were processed

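Probe set intensities, on a linear scale, were deposited by the authors for 5 Affymetrix arrays. Per the submitters' processing notes RMA made them, a method that gives every array the same distribution of probe signals and so hides a change of most genes in 1 direction. RMA's version, the chip definition and the step back from log2 were not given in the sources used here. Median intensities were 32.97 to 33.36. Log2 was taken with no pseudocount. Of 54675 probe sets, 41097 carried 1 symbol in the platform annotation, 1801 several and 11777 none; 41043 matched RefSeq by Entrez identifier, which changed 0 symbols. A gene was tested at a level of at least 6 on any compared array.

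Limma 3.58.1 (R 4.3.3, intensity trend, Benjamini-Hochberg over all genes) compared the hairpin arrays. The other comparisons are differences between single arrays. The gene lists and members were chosen with earlier results of these data known. Named genes are all 39 members, TRIB1, the markers, actin and the 3 highest and lowest other pathway genes per comparison. Promoters came from RefSeq (GRCh38.p14). The number of arrays limits the precision.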

Additional observations from a re-analysis of the deposited data

How the results depend on the processing

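The settings tried were the median of all probe sets per gene, leaving out probe sets ending in _s_at or _x_at, no level filter, a filter of 8, a pseudocount of 16, centring on the median, and the mean of both controls as the reference. No setting reversed the sign of a list median. A median counted as moved past the spread of the hairpin medians or, with no replicates, past 0.1. Genes at least 0.5 higher in the spheroid array numbered 12 as reported, 6 with the median over probe sets and 3 against the mean of 2D and shGFP, and those at least 0.5 lower numbered 1 as reported, 2 against that mean and 2 without _s_at and _x_at probe sets. With those probe sets left out, SSR3 became -1.19, from its dimmest probe set, which reached 6 on every array but the spheroid. It was the only called gene to change sign. Over all settings, 59 spheroid, 46 shTRIB1 and 25 shGFP values moved past their tolerance. For shTRIB1 minus shGFP, the 2 genes lower on both arrays became 0 against the mean of shGFP and 2D, where the median moved to -0.0159 from -0.14. With 1 hairpin array left out in turn the count was 4 either way and the median -0.17 to -0.0522. For shGFP minus 2D, 6 instead of 10 were at least 0.5 higher without _s_at and _x_at probe sets, and 1 instead of 0 lower with the median over probe sets. Limma called 0 of the genes under every setting, including a fit without the intensity trend, with the smallest adjusted p of a listed gene between 0.558 and 1. No paired analysis was possible because the groups compared share fewer than 2 replicate numbers. Differences of 1 array against 1 have no error, so which of them exceed the spread between cultures is unknown.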
